A study of Mus musculus with 2 samples.

Results

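The TNF receptor superfamily of T cells was followed through 10 receptor genes, Tnfrsf1a, Tnfrsf1b, Tnfrsf4, Tnfrsf9, Tnfrsf18, Tnfrsf25, Cd27, Fas, Tnfrsf10b and Tnfrsf14. They were chosen by gene symbol from the 41592 genes of an RNA-seq table of expression values, and all 10 were present and above the level filter used here, a mean of at least 1 FPKM. FPKM is the number of fragments counted per kilobase of gene and per unit of library size. Levels of different genes can be set beside each other on this scale as far as the length used for each gene is right. The first population was YFP-positive and Thy1.1-negative, and it was set against a population that was YFP-positive and Thy1.1-positive. Both were CD4+ cells sorted from lymph nodes and spleens, and the mice were C57BL/6 animals between 6 and 8 weeks of age, all of genotype Foxp3 dCNS1-Cre-R26-YFP. In these mice Cre is driven by Foxp3 regulatory DNA without the conserved element CNS1, and a YFP reporter at Rosa26 marks every cell where Cre was once active, with its descendants, whether or not Foxp3 is still expressed. The origin of Thy1.1 and the number of mice were not stated in the sources used here. The study set thymus-derived regulatory T (Treg) cells beside cells it called exFoxp3 precursors, but its design text gives the same markers to both, so the populations keep their marker names here. Each was 1 library, so there is no replicate check on any difference and no p-value is given.

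Members of this receptor family bind trimeric ligands of the TNF family through cysteine-rich extracellular domains. They signal either by recruiting TRAF adaptor proteins, which leads to NF-kB and to costimulation, or through an intracellular death domain that can recruit FADD or TRADD and lead to caspase-8. On Treg cells the receptors TNFR2, OX40, GITR and 4-1BB are known for high surface levels and for supporting expansion and survival. Of the 10 receptors, Tnfrsf1b, Tnfrsf4, Tnfrsf9, Tnfrsf18, Cd27 and Tnfrsf14 are of the TRAF-binding kind, and Tnfrsf1a, Fas, Tnfrsf10b and Tnfrsf25 carry a death domain.

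Depth was 18536339 counted reads in Thy1.1-negative cells, against 18600581 in Thy1.1-positive cells. The defining markers of the labelled cell type were present. The level of Foxp3, the transcription factor of Treg cells, was 158 FPKM in Thy1.1-negative cells, against 237 FPKM in Thy1.1-positive cells. Il2ra, the alpha chain of the IL-2 receptor, was at 98.8 FPKM in Thy1.1-negative cells, against 204.9 FPKM in Thy1.1-positive cells. Its ratio was 0.482 (exact 95% interval for counting error 0.466 to 0.499), and it was the 1 of 5 Treg markers past 2-fold on the log2(FPKM + 1) scale. Ctla4, an inhibitory receptor, had a ratio of 1.05 (1.03 to 1.07), and those of Ikzf2 and Nrp1 were 0.904 and 0.989. All 7 T cell genes examined were between 187 and 678 FPKM in Thy1.1-negative cells and between 149 and 512 FPKM in Thy1.1-positive cells. Thy1, whose name the sort marker carries, had the highest ratio of the 7, 1.60 (1.54 to 1.66). It stood at 246 FPKM in Thy1.1-negative cells and 153 FPKM in Thy1.1-positive cells, opposite to the names of the populations. What this means for the naming of the columns was not tested. Of the CD8 genes, Cd8a was at 0.173 FPKM in Thy1.1-negative cells and 0.242 FPKM in Thy1.1-positive cells, and Cd8b1 was at 4.603 FPKM in Thy1.1-negative cells and 4.25 FPKM in Thy1.1-positive cells.

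The B cell genes Ms4a1, Pax5, Ebf1 and Blnk were each below 0.4 FPKM in both libraries. Cd79b and Cd22 had ratios of 1.62 (1.25 to 2.11) and 2.15 (1.67 to 2.78). Cd79a went the other way, at 1.63 FPKM in Thy1.1-negative cells and 2.07 FPKM in Thy1.1-positive cells. Its ratio was 0.788 (0.519 to 1.19), not separable from 1. Summed over 7 B cell markers the level was 14.6 FPKM in Thy1.1-negative cells and 9.43 FPKM in Thy1.1-positive cells, and over 6 cell cycle genes it was 153 against 24.5 FPKM, with all 6, Mki67, Top2a, Stmn1, Rrm2, Aurkb and Ccnb2, past 2-fold. The 6 myeloid markers summed to 68.4 FPKM in Thy1.1-negative cells and 50.9 FPKM in Thy1.1-positive cells, most of it Cst3, while Lyz2, Csf1r, Cd14 and Adgre1 were below 0.3 FPKM in both. Itgam, an integrin chain of myeloid and NK cells, was at 4.17 FPKM in Thy1.1-negative cells, against 0.272 FPKM in Thy1.1-positive cells, from 229 and 15 reads, a ratio of 15.3 (9.10 to 27.8). Also past 2-fold was Prdm1 of the plasma cell markers, at 15.01 FPKM in Thy1.1-negative cells against 6.62 FPKM in Thy1.1-positive cells. The other plasma cell markers differed in direction. Sdc1 had a ratio of 1.70 (1.21 to 2.41), Xbp1 0.877 (0.837 to 0.919) and Jchain 0.564 (0.298 to 1.04). Of the NK cell markers, Klrb1c was past 2-fold, at 2.08 against 0.445 FPKM. Eomes was lower, with a ratio of 0.743 (0.576 to 0.955). Ncr1 had 0 reads in Thy1.1-negative cells and 6 in Thy1.1-positive cells, and Klra8 had 3 and 1. The part of any of these in the receptor values was not tested.

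None of the 10 receptors differed by 2-fold. A gene was counted as past that rule when log2(FPKM + 1) differed by at least 1 between the libraries, which held for 1.93% of the 12820 genes averaging 1 FPKM or more in the higher direction, for 1.15% in the lower direction and for 3.08% in either, so 0 of 10 is near the background. Past 1.5-fold, 0 receptors were higher and 1, Tnfrsf9, was lower, against 5.81% and 3.85% of all genes. The receptors were spread from 0.566 to 1.26 times the Thy1.1-positive level. The TRAF-binding receptors Tnfrsf9, Tnfrsf4, Tnfrsf18 and Tnfrsf1b had the lowest ratios of Thy1.1-negative to Thy1.1-positive cells. Next was the death domain receptor Tnfrsf10b at 0.853 (0.763 to 0.953), an interval that held that of Tnfrsf1b, 0.827 to 0.865. Fas was at 0.934 (0.824 to 1.06). Cd27 and Tnfrsf14, also TRAF-binding, and Tnfrsf25 were nearly level, and Tnfrsf1a was the highest. Intervals given with ratios are exact 95% intervals for counting error alone, and they leave out variation between mice, sorts and library preparations. In sorted populations measured in bulk, fewer cells that express a gene and less of its RNA per cell cannot be told apart.

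Upstream sequence is shown for receptors of both kinds, Tnfrsf9 as the one with the lowest ratio, Tnfrsf1b as the most abundant in Thy1.1-negative cells, and Fas as a death receptor whose window holds both of the motifs marked in capitals. The bases come from RefSeq on GRCm38.p6 and run 5′ to 3′ on the strand of the gene, up to its annotated start or to the first annotated exon base. Capitals mark matches to TTCNNNGAA, the palindrome bound by STAT factors, or to TGANTCA, the AP-1 site. Tnfrsf9 has 2 annotated starts, and the second lies downstream of the first within the gene. Before the second start, the last 81 bases of the window lie in an exon of the GENCODE M21 annotation and are not shown.
Tnfrsf9, first start, chr4:150919905-150920154, plus strand: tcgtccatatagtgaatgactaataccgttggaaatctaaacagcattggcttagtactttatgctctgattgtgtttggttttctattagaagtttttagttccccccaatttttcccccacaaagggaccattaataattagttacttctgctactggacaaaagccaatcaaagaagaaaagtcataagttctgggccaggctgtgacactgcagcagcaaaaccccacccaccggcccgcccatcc
Tnfrsf9, second start, chr4:150927749-150927917, plus strand: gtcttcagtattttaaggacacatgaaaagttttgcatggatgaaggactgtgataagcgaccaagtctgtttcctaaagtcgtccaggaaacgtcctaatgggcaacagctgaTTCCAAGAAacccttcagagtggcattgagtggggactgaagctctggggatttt
Tnfrsf1b, chr4:145246871-145247120, minus strand: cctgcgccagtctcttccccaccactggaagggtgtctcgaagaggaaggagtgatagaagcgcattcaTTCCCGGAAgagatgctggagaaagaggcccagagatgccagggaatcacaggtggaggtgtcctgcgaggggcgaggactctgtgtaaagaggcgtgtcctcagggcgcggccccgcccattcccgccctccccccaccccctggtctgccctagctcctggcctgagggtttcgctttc
Fas, chr19:34290409-34290658, plus strand: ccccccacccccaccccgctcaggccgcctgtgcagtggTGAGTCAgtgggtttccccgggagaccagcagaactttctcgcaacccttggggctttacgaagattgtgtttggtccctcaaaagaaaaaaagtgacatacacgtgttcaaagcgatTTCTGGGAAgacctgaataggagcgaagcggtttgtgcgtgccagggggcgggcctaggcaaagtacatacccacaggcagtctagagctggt

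Of the 10 receptors, 9 had an upstream window in the RefSeq table, 11 windows in all. The 250 bases before each start were searched on both strands for 5 motifs. TTCNNNGAA was found in 6 of the 11 windows, 1 each of 6 receptors, and in 7.02% of all 32841 windows of that length. Beside the matches shown, the letters were TTCCGTGAA for Tnfrsf1a, TTCACAGAA for Tnfrsf18 and TTCTCAGAA for Tnfrsf25. Those of Tnfrsf1a and Tnfrsf18 lay wholly in bases that GENCODE M21 places in an exon, and that of Tnfrsf25 lay outside exons. Matches over all windows were not sorted in this way. The receptors with a match thus had ratios at both ends of the range, from Tnfrsf9 to Tnfrsf1a. TGANTCA was found in 2 of the 11 windows, those of Fas and of the second Tnfrsf9 start, against 6.75% of all windows. The NF-kB consensus was found in 2 windows, of Tnfrsf9 and Tnfrsf25, against 7.25% of all windows. In Tnfrsf9 both the TGANTCA and the NF-kB matches lay in the 81 exon bases before the second start that are not shown, the NF-kB ones as the overlapping matches GGGGATTTCC and GGGATTTCCC, which share bases with a match to GGAAA. The forkhead motif GTAAACA was in none of the 11 windows and in 3.17% of all windows, and GGAAA, the core of NFAT sites, was in 9 of 11 windows and in 55.6% of all windows. These are matches of letters in a fixed window, and binding was not measured.

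Tnfrsf9, which encodes 4-1BB, a costimulatory receptor induced by antigen signalling, had 146 FPKM in Thy1.1-negative cells and 258 FPKM in Thy1.1-positive cells. The values rest on 3304 and 5858 reads, and their ratio was 0.566 (0.542 to 0.591). The intervals of the other 9 receptors lay above that of Tnfrsf9. On the log2(FPKM + 1) scale the difference was -0.82, and 2.08% of all genes past the level filter had a difference as low or lower. Among the 1115 genes averaging 100 FPKM or more, a level chosen after the values were seen, that share was 0.717%. By level Tnfrsf9 ranked 712th of all genes in Thy1.1-negative cells and 338th in Thy1.1-positive cells.

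Tnfrsf4 encodes OX40, a costimulatory receptor that Treg cells carry without prior stimulation. Its level was 317 FPKM in Thy1.1-negative cells and 437 FPKM in Thy1.1-positive cells, a ratio of 0.725 (0.699 to 0.751). Tnfrsf18, which encodes GITR, another receptor high on resting Treg cells, stood at 89.4 FPKM in Thy1.1-negative cells and 116 FPKM in Thy1.1-positive cells, a ratio of 0.773 (0.721 to 0.828). The intervals of these ratios overlapped each other and lay below 1. As many as 6.19% of all genes had a difference as low as that of Tnfrsf4, and 8.74% one as low as that of Tnfrsf18.

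Tnfrsf1b encodes TNFR2, the TNF receptor that acts through TRAF2 rather than a death domain. It was the best covered of the 10, with 13685 and 16234 reads, at 352 FPKM in Thy1.1-negative cells and 416 FPKM in Thy1.1-positive cells. The ratio was 0.846 (0.827 to 0.865), and 15.5% of all genes had a difference as low. When the libraries were rescaled by the upper quartile of their values above 0, the difference of the median gene moved up by 0.23, from 0.03 to 0.26. The quartile was taken over unequal sets of genes, 28107 in Thy1.1-negative cells and 25709 in Thy1.1-positive cells. Under this rescaling the sign turned for Tnfrsf1b, Tnfrsf10b, Fas, Cd27 and Tnfrsf25. Tnfrsf9, Tnfrsf4 and Tnfrsf18 stayed lower in Thy1.1-negative cells, at log2 differences of -0.56, -0.21 and -0.11. Each of the other rescalings left 8 receptors below 0 and 2 above, as deposited.

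Cd27, whose product binds CD70 and supports T cell survival, was level, with 244 FPKM in Thy1.1-negative cells and 247 FPKM in Thy1.1-positive cells. Its ratio of 0.990 had an interval of 0.946 to 1.04. Tnfrsf14 encodes HVEM, which binds the ligand LIGHT and the inhibitory receptor BTLA. It had 45.3 FPKM in Thy1.1-negative cells, against 42.6 FPKM in Thy1.1-positive cells, and its ratio of 1.06 (0.948 to 1.19) was not separable from 1 at this depth.

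The death domain receptors were less abundant than most of the TRAF-binding ones. Tnfrsf1a encodes TNFR1, the receptor through which TNF can trigger inflammation or cell death. It had 33.6 FPKM in Thy1.1-negative cells and 26.6 FPKM in Thy1.1-positive cells, from 526 and 418 reads. It was the receptor of the 10 with a ratio whose interval lay above 1, at 1.26 (1.11 to 1.44), and 14.95% of all genes had a difference as high. TNF thus had its 2 receptors at unequal ratios, 1.26 for Tnfrsf1a and 0.846 for Tnfrsf1b, with intervals that did not overlap.

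Tnfrsf25 encodes DR3, the receptor of TL1A and a known stimulus of Treg expansion. It stood at 54.8 FPKM in Thy1.1-negative cells and 54.9 FPKM in Thy1.1-positive cells, a ratio of 0.999 (0.918 to 1.09). Fas, the receptor of Fas ligand in activation-induced death, had 26.1 FPKM in Thy1.1-negative cells and 27.96 FPKM in Thy1.1-positive cells, a ratio of 0.934 (0.824 to 1.06). Tnfrsf10b, the TRAIL receptor of the mouse, was the least abundant, at 12.5 against 14.7 FPKM in Thy1.1-negative and Thy1.1-positive cells. Its ratio was 0.853 (0.763 to 0.953). For Fas, Tnfrsf10b and Tnfrsf14 the gene length implied by the deposited values differed from the mean annotated transcript length by more than 1 base, so their read numbers, and with them the width of their intervals, rest on a less certain length. The same limit holds for other genes named in the text, among them Foxp3, Il2ra, Thy1, Ripk3, Traf5, Nfkbia, Cyld and Tnfrsf22. For Ripk3 the implied length was 1904 bases, against an annotated mean of 947.

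**Figure D1:**
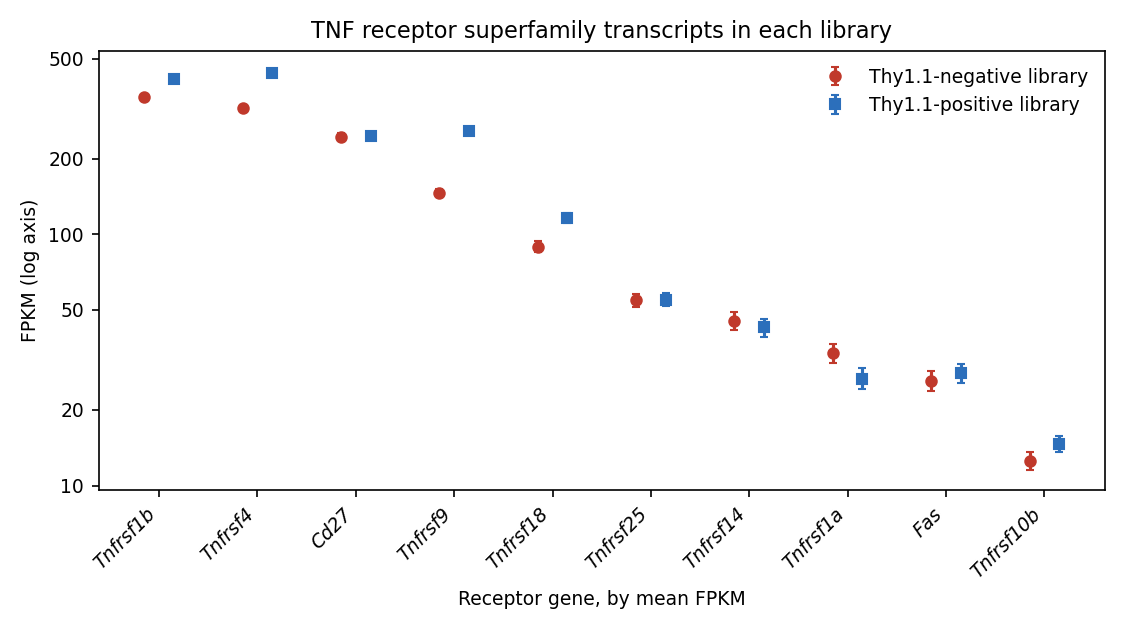
FPKM (log axis) of the 10 receptor genes in Thy1.1-negative cells (circles) and the Thy1.1-positive library (squares), ordered by mean level, with exact 95% Poisson intervals that cover counting error only. Tnfrsf9 stands at 146 FPKM in Thy1.1-negative cells and 258 FPKM in Thy1.1-positive cells, while Cd27 and Tnfrsf25 lie side by side.

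**Figure D2:**
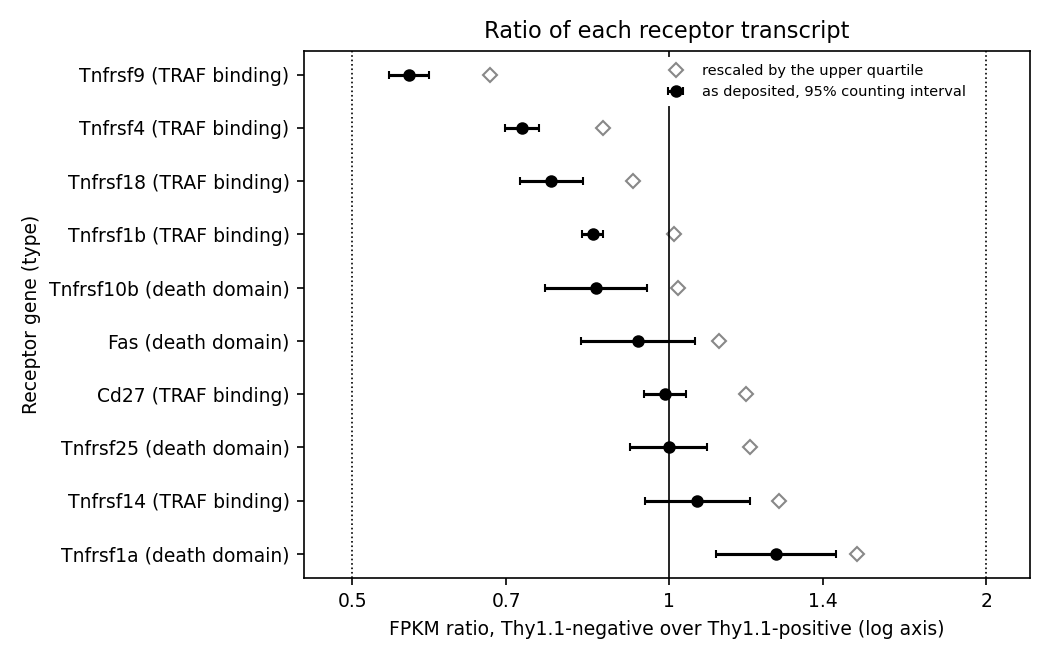
Ratio of FPKM, Thy1.1-negative over Thy1.1-positive (log axis), for each receptor as deposited (filled, with exact 95% counting intervals) and after rescaling by the upper quartile (open). The dotted lines mark 2-fold; Tnfrsf9 is lowest at 0.566 and Tnfrsf1a highest at 1.26, and Tnfrsf1b, Tnfrsf10b, Fas, Cd27 and Tnfrsf25 cross 1 with the rescaling.

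The order of the levels differed between the populations. In Thy1.1-negative cells it ran Tnfrsf1b, Tnfrsf4, Cd27, Tnfrsf9, Tnfrsf18, Tnfrsf25, Tnfrsf14, Tnfrsf1a, Fas and Tnfrsf10b, and the counting intervals of neighbours did not overlap. The Thy1.1-positive library had Tnfrsf4 above Tnfrsf1b, Tnfrsf9 above Cd27 and Fas above Tnfrsf1a. In that library the intervals of Tnfrsf9 and Cd27 overlapped, as did those of Fas and Tnfrsf1a, so neither of these pairs can be ordered there. Tnfrsf9 was thus about level with Cd27 in Thy1.1-positive cells and below it in Thy1.1-negative cells.

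Summed over the 10 receptors, the level was 1321 FPKM in Thy1.1-negative cells and 1641 FPKM in Thy1.1-positive cells, a ratio of 0.805 (0.792 to 0.8185, a normal approximation to counting error). The 6 TRAF-binding receptors summed to 1194 and 1516 FPKM, a ratio of 0.787 (0.774 to 0.801). The 4 death domain receptors summed to 127 and 124 FPKM, a ratio of 1.02 (0.968 to 1.08). Gene by gene, most receptors of both kinds had ratios below 1, 5 of the 6 and 3 of the 4. Their median log2 differences were -0.30 and -0.05. Tnfrsf1a was the 1 death domain receptor above 1. With the 4 receptors of lowest ratio left out, a choice made by their values, the other 6 summed to 417 and 414 FPKM. Their ratio was 1.01 (0.974 to 1.04). Tnfrsf9 made up 11.04% of the sum in Thy1.1-negative cells and 15.7% in Thy1.1-positive cells. Cd27 made up 18.5% and 15.05%, so its share was larger in Thy1.1-negative cells although its level was not. As deposited, 8 of the 10 receptor ratios were below 1 and 2 above, and the same held under each rescaling but the upper quartile. After rescaling by the upper quartile 3 were below and 7 above, with a summed ratio of 0.962. The median log2 difference of all genes was then 0.26, and their share above 0 was not counted. With the deposited values the median log2 difference was -0.15, against 0.03 over all genes past the level filter, of which 55.1% had a difference above 0. Of the 8 ratios below 1, 5 had intervals below 1. The share of all genes with such an interval was not counted, so this number has no background to be read against. For comparison, all 7 T cell genes examined, among them Thy1, Cd3e, Cd4 and Lck, were higher in Thy1.1-negative cells, with a median of 0.33.

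**Figure D3:**
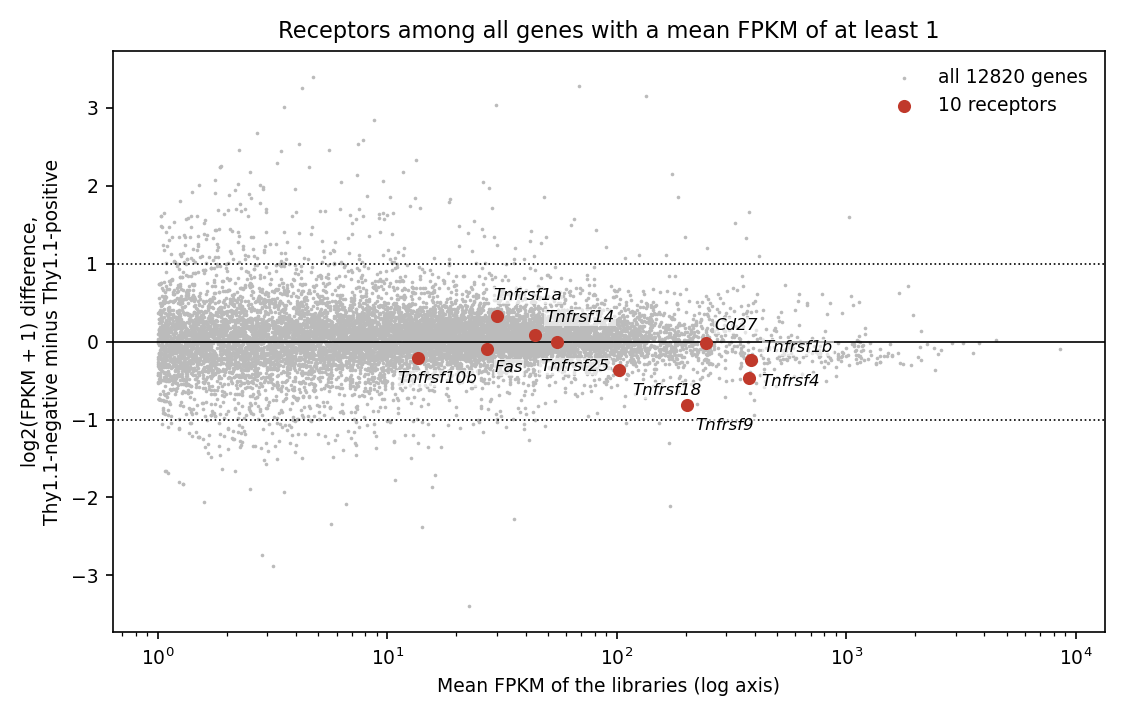
Difference in log2(FPKM + 1), Thy1.1-negative minus Thy1.1-positive, against mean FPKM (log axis) for the 12820 genes averaging 1 FPKM or more (grey), with the 10 receptors in red and 2-fold as dotted lines. All 10 lie within 2-fold, and Tnfrsf9, at -0.82, lies lowest among them; rescaled by the upper quartile, all genes would move up by 0.23 at the median and 5 of the receptors would change sign.

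The receptor genes share positions on a few chromosomes. In the RefSeq annotation of GRCm38.p6, 6 of the 10 lie on chromosome 4, namely Tnfrsf1b, Tnfrsf9, Tnfrsf25, Tnfrsf14, Tnfrsf4 and Tnfrsf18, and Cd27 and Tnfrsf1a lie on chromosome 6. Tnfrsf4 and Tnfrsf18 are next to each other, with 0 protein-coding genes between them. Their measured neighbours, looked at after the values were seen, did not all have the same ratio. Sdf4, a calcium-binding protein of the Golgi on the Tnfrsf4 side, was at 217 FPKM in Thy1.1-negative cells and 220.1 FPKM in Thy1.1-positive cells, a ratio of 0.987 (0.955 to 1.02). On the Tnfrsf18 side, Ttll10, of the tubulin tyrosine ligase-like family, had 4.54 against 9.36 FPKM, a ratio of 0.485 (0.384 to 0.609). The gene after it, 9430015G10Rik, had 15.7 against 21.4 FPKM, a ratio of 0.732 (0.645 to 0.830). Tnfrsf9 lay between Park7, at a ratio of 0.931 (0.871 to 0.995), and, past Per3, Vamp3 at 1.21 (1.14 to 1.29). On chromosome 6, Cd27 and Tnfrsf1a, at 0.990 and 1.26, have among the genes between them Tuba3a, a tubulin gene at 9.58 FPKM in Thy1.1-negative cells and 10.2 FPKM in Thy1.1-positive cells, with a ratio of 0.944 (0.796 to 1.12). Ltbr, the lymphotoxin beta receptor, also lies there but did not pass the level filter, at 0.759 and 0.407 FPKM in Thy1.1-negative and Thy1.1-positive cells.

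Tnfrsf18 shares exon bases with Gm16008, an antisense RNA gene on the other strand. Gm16008 had 26.1 FPKM in Thy1.1-negative cells and 47.9 FPKM in Thy1.1-positive cells, a ratio of 0.546 (0.468 to 0.635) from 265 and 487 reads. The kit named in the labels is not stated to mark strand, so reads in the exon bases that these genes share cannot be told apart. How such reads were counted was not stated, and the extent of the shared bases was not measured. The values of both genes are uncertain to that degree. Cd27 shares bases with a microRNA gene, Mir8113, that was listed at 0 in both libraries. The other 8 receptors shared no exon bases with another annotated gene.

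Of 18 other receptors of the superfamily, 8 averaged 1 FPKM or more and none was past 2-fold, with a median log2 difference of 0.08. The largest difference was that of Tnfrsf26, a mouse receptor without a death domain, at 14.9 FPKM in Thy1.1-negative cells and 7.17 FPKM in Thy1.1-positive cells. Its ratio was 2.08 (1.84 to 2.35), but its log2(FPKM + 1) difference was 0.96, and it passed 2-fold with a pseudocount of 0.1 or after rescaling by the upper quartile, at 1.20 in the second case. Tnfrsf22 and Tnfrsf23, decoy receptors for TRAIL in the mouse that lie beside it, had ratios of 1.04 (0.945 to 1.15) and 1.73 (1.03 to 2.95). These genes are near copies of each other, and how reads were shared between them was not stated in the sources used here. Tnfrsf13b, which encodes TACI, a receptor best known from B cells, stood at 44.8 and 41.01 FPKM in Thy1.1-negative and Thy1.1-positive cells. The B cell marker with the highest level, Cd79b, was at 6.45 FPKM in Thy1.1-negative cells and 3.97 FPKM in Thy1.1-positive cells. Cd40 had the lowest difference, -0.30, at 0.895 against 1.34 FPKM from 18 and 27 reads, a ratio of 0.669 (0.347 to 1.26).

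Among the 11 ligand genes of these receptors, 8 were measured, none was past 2-fold, and 4 lay above and 4 below 0, with a median of -0.05, or 6 above and 2 below with a median of 0.16 after rescaling by the upper quartile. Tnfsf4, the ligand of OX40, had the lowest difference at 3.69 FPKM in Thy1.1-negative cells and 5.84 FPKM in Thy1.1-positive cells, a ratio of 0.632 (0.502 to 0.794), so ligand and receptor transcripts of this pair were both lower in Thy1.1-negative cells. Tnfsf14, which encodes LIGHT, had the highest, at 3.28 against 1.995 FPKM, a ratio of 1.64 (1.21 to 2.25). Tnf itself had a ratio of 1.31 (1.12 to 1.54) and Lta, which binds the same receptors, 0.749 (0.650 to 0.862). Tnfsf9, the ligand of 4-1BB, was low at 1.62 and 1.57 FPKM. Cd70, Tnfsf18 and Tnfsf15 were below 0.3 FPKM in both libraries. Of the partners of HVEM, Btla had 38.3 FPKM in Thy1.1-negative cells and 28.2 FPKM in Thy1.1-positive cells, a ratio of 1.36 (1.24 to 1.48), and Cd160 a ratio of 0.962 (0.740 to 1.25).

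The signalling genes beneath the receptors that are reported here all averaged 1 FPKM or more, and none was past 2-fold in either direction. The 11 TRAF adaptors and associated ligases had a median difference of 0.02, with 6 above and 5 below 0 as deposited, and 10 above and 1 below 0 after rescaling by the upper quartile. With that rescaling the median of all genes was itself 0.26, and their share above 0 was not counted. Traf5, an adaptor of OX40, CD27 and GITR, was highest at 26.7 FPKM in Thy1.1-negative cells and 19.4 FPKM in Thy1.1-positive cells, a ratio of 1.38 (1.25 to 1.52). Traf4 was lowest at 54.7 against 75.7 FPKM, a ratio of 0.722 (0.682 to 0.764). Traf1, which binds 4-1BB and TNFR2, was level at 177 and 181 FPKM, with a ratio of 0.980 (0.945 to 1.02), next to ratios of 0.566 and 0.846 for those receptors.

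The 11 genes of death domain signalling reported here had a median difference of 0.20, and 10 of them lay above 0, as did 55.1% of all genes. Ripk3, a kinase of necroptosis, had the highest difference of the 11, 0.57, at 29.8 FPKM in Thy1.1-negative cells and 19.7 FPKM in Thy1.1-positive cells, a ratio of 1.51 (1.37 to 1.67). The adaptor Fadd and the kinase Ripk1 had ratios of 1.49 (1.17 to 1.91) and 1.33 (1.21 to 1.46), while Casp8 had 1.03 (0.971 to 1.09). Faim, an inhibitor of Fas-driven death, was the exception, at 56.5 FPKM in Thy1.1-negative cells and 107 FPKM in Thy1.1-positive cells, a ratio of 0.526 (0.495 to 0.560). The summed level of the 6 cell cycle genes was also higher in Thy1.1-negative cells, as given above, and its part in these values was not tested.

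The 15 NF-kB regulators that act below these receptors had a median difference of -0.03, with 6 above and 9 below 0 as deposited, and 14 above and 1 below 0 after rescaling by the upper quartile. As deposited, 55.1% of all genes lay above 0. Under the rescaling the median of all genes was 0.26, and their share above 0 was not counted. Tnfaip3, which encodes the deubiquitinase A20 and is a target of NF-kB, was the most abundant gene of all the lists, at 1585 FPKM in Thy1.1-negative cells and 1759 FPKM in Thy1.1-positive cells, a ratio of 0.901 (0.893 to 0.910). Nfkbia, another NF-kB target and the inhibitor of the pathway, had a ratio of 0.891 (0.872 to 0.910). The lowest was Map3k14, the kinase of the noncanonical NF-kB pathway used by OX40 and TNFR2, at 58.1 against 72.6 FPKM and a ratio of 0.800 (0.757 to 0.845). The highest was Cyld, a deubiquitinase that restrains NF-kB, at 30.4 against 26.2 FPKM and a ratio of 1.16 (1.11 to 1.21).

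**Figure D4:**
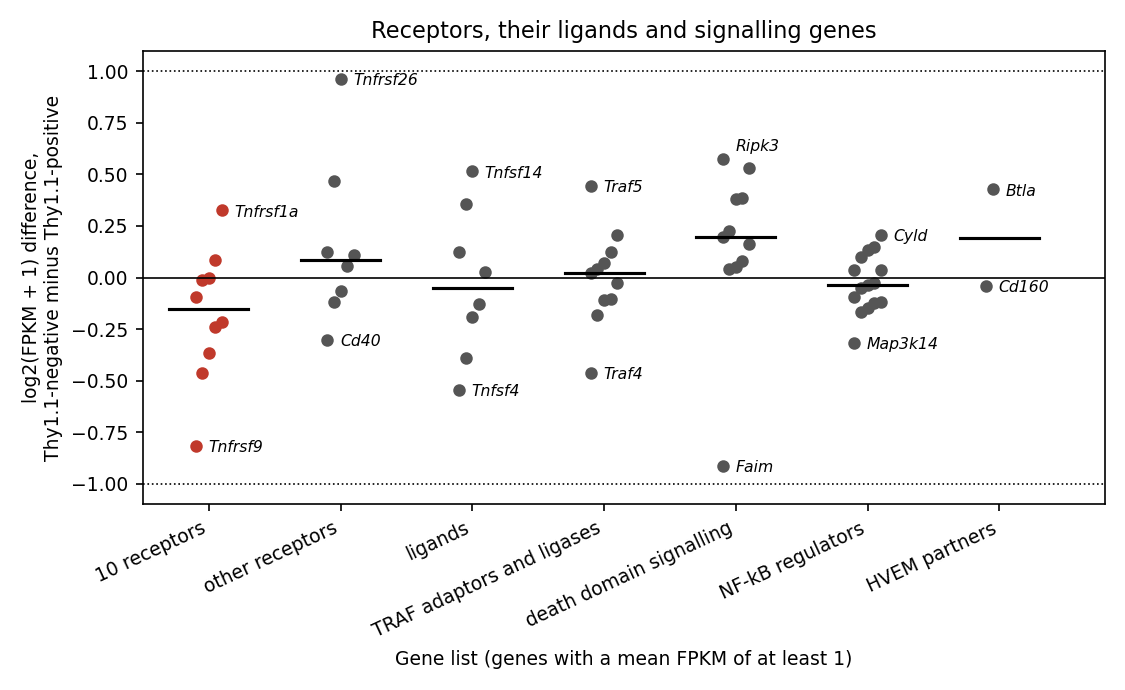
Difference in log2(FPKM + 1), Thy1.1-negative minus Thy1.1-positive, for genes averaging 1 FPKM or more in each list (points), with the median as a bar and 2-fold as dotted lines. Every gene lies within 2-fold, from Faim at -0.91 to Tnfrsf26 at 0.96. After rescaling by the upper quartile the medians of the receptors, the ligands and the NF-kB regulators lie above 0, as does that of all genes, at 0.26.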

How the data were processed

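Total RNA of the sorted populations was made into libraries with a NEBNext Ultra kit from 3 µg, per the labels' protocols, which give a sort purity above 97%. The authors deposited 1 FPKM column for each population, by Ensembl gene. N and P in a column's name were taken to mean negative and positive for Thy1.1. Tools named in the submitters' processing notes are HTSeq 0.6.1, TopHat2 2.0.12 and Bowtie2 2.2.3, with the build mm9, and their settings were not stated in the sources used here. Symbols were matched for 40254 of 41592 IDs.

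FPKM is normalised, so no count model was used. FPKM ratios of the 23442 genes above 0 in both libraries were whole-number ratios times 1 factor, within a tolerance of 2e-12. Library totals came from genes with 1 annotated transcript in GENCODE M21, 4016 of which gave the same total, and each gene's reads were the multiple nearest its mean transcript length. Recovered reads came to 98.3% and 98.2% of the totals, and 37.0% of genes averaging 1 FPKM or more needed a multiple above 1. Exact Clopper-Pearson intervals of each gene's share of reads gave the intervals of ratios, and exact Poisson intervals those of levels, for counting error only. Reads without molecular identifiers are not independent molecules. The recovery was tested on simulated data built from the same mean transcript lengths that it uses. That test therefore cannot show whether these lengths hold for the deposited values. Of genes averaging 1 FPKM or more, 54.4% had an implied length within 1 base of the mean annotated length.

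Differences are log2(FPKM + 1), Thy1.1-negative minus Thy1.1-positive, for genes averaging 1 FPKM or more, which understates the change of low genes. All 10 receptors were named, and of each list of other receptors, ligands and signalling genes the highest and lowest difference and any gene past 2-fold. Other genes named were chosen after their values were seen, as were the motifs. The receptors and lists were chosen with earlier results of these data known, and some genes of those lists are not reported here. No gene of like pattern was sought, since 2 libraries give 1 ratio. Alternatives were other pseudocounts, filters, fold rules and 4 rescalings. Python 3.11.15, pandas 2.3.3, NumPy 2.4.6, SciPy 1.17.1 and matplotlib 3.10.9 were used.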

Additional observations from a re-analysis of the deposited data

How the results depend on the processing

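No paired analysis was possible because each population was 1 library, and no library could be left out for the same reason. The count of receptors past 2-fold stayed at 0 with the other pseudocounts, filters, rescalings and a 4-fold rule, and a 1.5-fold rule, past which lay 3.85% of all genes in the lower direction, gave 1, Tnfrsf9. Among all genes, 247 were higher and 148 lower. These counts were 402 and 293 when 0.1 was added before the log, 72 and 19 when 5 was added, 107 and 60 at a mean FPKM of at least 5, 745 and 493 at 1.5-fold and 31 and 9 at 4-fold. Rescaling by the upper quartile gave 398 and 82, so that 82.9% of calls were higher, against 62.5% as deposited, and adding 5 gave 79.1%. That rescaling moved the median difference of the receptors to 0.088, of the other receptors to 0.32, of the TRAF adaptors and ligases to 0.27, of death domain signalling to 0.44 and of the NF-kB regulators to 0.22. All of these shifts follow the shift of the median gene by 0.23, and the receptors stayed below it, by -0.17 against -0.18 as deposited. The summed level of the receptors had a ratio of 0.962 by the upper quartile, 0.786 with the median difference centred on 0 and 0.785 without the 100 highest genes. Among the 8 other receptors measured, 1 gene was past 2-fold, higher, with a pseudocount of 0.1 or by the upper quartile. Of all 12820 genes, 402 and 398 were higher under these settings. Past 1.5-fold, 1 of the 8 was higher, against 5.81% of all genes. Death domain signalling had 1 of 11 genes lower at 1.5-fold, Faim, against 3.85% of all genes. Of the 25 values that moved, the remaining causes were not tested.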
